A study of Homo sapiens with 6 samples.

Results

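Solute carriers (SLC) are membrane proteins that move small molecules and ions across the plasma membrane and the membranes of organelles. The genes described here have a symbol of the form SLC, a number, A and a number, and were chosen by their level in these same libraries, a mean FPKM of 1 or higher across all 6. The symbols SLC25A20, SLC22A4 and SLC16A9 were left out by that rule. The table holds 215 SLC names, against 334 of that form in GENCODE 29, and ranks below are among the names listed. Of the 215, 106 reached the level, and 103 of these were members; 109 lay under it, 29 of them listed at 0 in all libraries. FPKM are fragments per kilobase of transcript, scaled to the mapped fragments of each library, so levels can be set side by side between genes. The cells were NCI-H460, an established line from a human large cell carcinoma of the lung, infected with a lentiviral vector for KRAB-dSpCas9, a dead Cas9 fused to a repressor domain that lowers transcription at the site of its guide. One group carried guide sg2 against CPT1, another guide sg1 against CPT1 and the third the nontargeting guide sgNTG, with 2 libraries each. All groups carried the KRAB-dSpCas9 vector, and puromycin at 2 μg/ml was applied to all from 48 h onward. CPT1 is carnitine palmitoyltransferase 1, which joins long-chain fatty acids to carnitine for their entry into mitochondria. The CPT1 isoforms were not analysed here, so these values do not show that either guide lowered its target.

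SLC genes are numbered by family, and a family shares ancestry and often a kind of substrate. SLC25 proteins sit mainly in the inner mitochondrial membrane and exchange ADP, phosphate, organic acids, amino acids and metals with the cytosol. Some SLC7 proteins, such as SLC7A5 and SLC7A11, pair with the heavy chain SLC3A2 to exchange amino acids at the cell surface, while the cationic amino acid carriers SLC7A1 and SLC7A2 work without it, SLC2 proteins carry sugars, and SLC30 and SLC39 proteins move zinc in opposite directions across the cytosolic border. Tumor cell lines commonly use such carriers for glutamine, cystine and glucose uptake.

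The listed values summed to 253075 and 251704 FPKM in the sg2 libraries, 258618 and 260500 in the sg1 libraries, and 255783 and 253619 in the sgNTG libraries. The 103 SLC genes together held 2483 and 2456 FPKM with sg2, 2489 and 2549 with sg1, and 2407 and 2480 with sgNTG. Both sg1 libraries thus lay above all others, as they did for the sum of all listed values. For the SLC sum sg2 and sgNTG overlapped, whereas for all listed values both sg2 libraries lay below both sgNTG libraries. The absolute depth is unknown in FPKM. Nothing in the labels says whether replicate libraries came from different cultures, so p-values reflect only how far these libraries differ, and that spread may be technical. The keratins KRT18 and KRT19, markers of epithelial cells, summed with the epithelial cadherin CDH1 to 234 and 228 FPKM with sg2, 277 and 271 with sg1, and 245 and 242 with sgNTG, while CDH1 itself stayed at 0.105 FPKM or lower in every library. KRT19 passed the test between the guides, at 143 and 140.5 FPKM with sg2, 179 and 169 with sg1, and 155 and 154 with sgNTG (sg2 minus sg1 -0.30, limma adjusted p = 0.0338), in the same order as SLC25A3 and SLC25A6 below. KRT18 did not pass, and its sg2 libraries overlapped the sgNTG libraries. The part of these markers in the results below was not tested. COL1A2, a fibroblast collagen, was listed at 0 in 5 of the 6 libraries and CD68, a lysosomal protein used as a macrophage marker, lay between 21.5 and 26.5 FPKM. The other markers of leukocytes, endothelium and fibroblasts were not analysed here. With bulk RNA, fewer cells of a kind and less RNA per cell cannot be told apart.

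Against the nontargeting guide, no SLC gene passed the test with either CPT1 guide or with both. Hardly any gene of the table did: 0.0113% of all tested genes passed with sg1, 0.0225% with sg2 and 0.0113% with both. Between the guides, 2 of 103 passed, both lower with sg2 (background 0.776% of all genes lower and 0.518% higher): SLC25A3 and SLC25A6, carriers that bring phosphate and ADP into the mitochondrial matrix. In that comparison 1.29% of all 8887 tested genes were called, so 2 of 103 SLC genes (1.94%) is near the background. SLC25A3, the mitochondrial phosphate carrier, measured 107 and 106 FPKM with sg2, 129 and 131 with sg1, and 113 and 110.4 with sgNTG. All sg1 libraries lay above the sgNTG libraries and all sg2 libraries below them. Its means were 106 ± 0.795 FPKM with sg2, 129.8 ± 1.42 with sg1 and 112 ± 1.92 with sgNTG (SD, n = 2 each). The log2(FPKM + 1) difference of sg2 from sg1 was -0.29 (SE 0.0324, limma adjusted p = 0.0296), or 0.821 times the sg1 level. SLC25A6, an ADP/ATP carrier, measured 153 and 146 FPKM with sg2, 182 and 177 with sg1, and 157 and 154 with sgNTG. Its groups did not overlap either, again with sg1 highest and sg2 lowest. The difference of sg2 from sg1 was -0.27 (SE 0.0362, limma adjusted p = 0.0380), or 0.832 times the sg1 level. Both calls were lost when any single library was left out, those of sgNTG included, with limma adjusted p from 0.0660 to 0.164 for SLC25A3 and from 0.0731 to 0.182 for SLC25A6. They were also lost without a filter on low values, without a trend of the variance, with a replicate block and with only the libraries compared. That of SLC25A6 was lost with quantile normalization too (limma adjusted p = 0.0608).

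**Figure D1:**
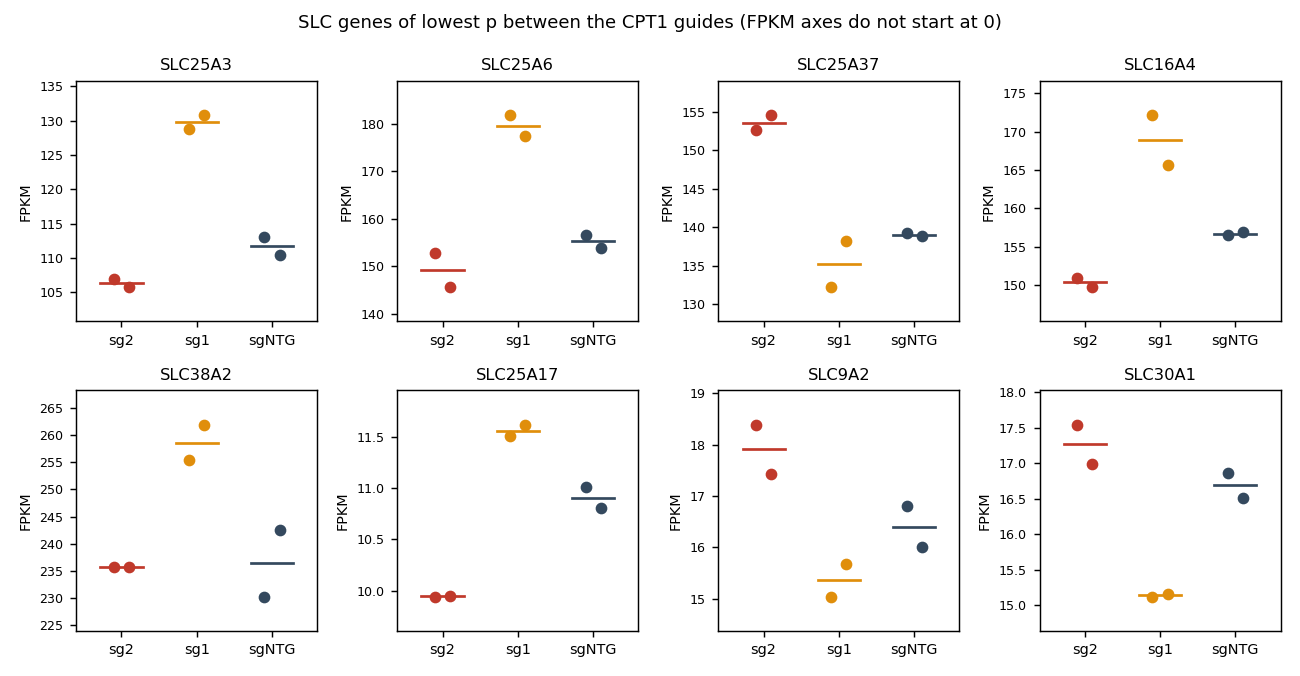
FPKM of the 8 SLC genes of lowest p between the CPT1 guides, with 1 point per library and a line at the mean of each group of 2 libraries; the FPKM axes differ between panels and do not start at 0. SLC25A3 and SLC25A6, which passed the test, were highest with sg1 and lowest with sg2, and SLC25A37, which did not pass, was highest with sg2.

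SLC25A3 lies on the plus strand of chromosome 12 (98593591 to 98606379, build hg38) and SLC25A6 on the minus strand of chromosome X (1386152 to 1392724) in GENCODE 29. SLC25A6 is in the pseudoautosomal region shared with the Y chromosome, and the table listed it in 2 rows of identical values, which were kept once. Near-identical copies can take reads from both genes. The 3 pseudogenes of SLC25A3 in the table had means of 0.0554 FPKM or lower, and the 6 of SLC25A6 means of 0.0449 FPKM or lower. SLC25A5, another ADP/ATP carrier, was not analysed here. SLC25A4, a related ADP/ATP carrier, measured 6.72 and 5.51 FPKM with sg2, 6.62 and 6.82 with sg1, and 5.63 and 6.33 with sgNTG, so its groups overlapped except that sg1 lay above sgNTG. SNORA53, a small nucleolar RNA within SLC25A3, lay between 0.988 and 1.52 FPKM. Because these 2 genes were both lower with sg2 than with sg1, the 250 bases before each RefSeq start are shown (build GRCh38.p14; chr12:98593436-98593685, plus strand, and chrX:1392114-1392363, minus strand). By the GENCODE 29 spans given above, the SLC25A6 window lies wholly within its gene and the 3′ end of the SLC25A3 window lies within its gene, so transcripts in that annotation can start further upstream. Capitals mark matches on either strand to the NRF1 motif (GCGC, any pair of bases and GCGC again), the CCAAT box CCAAT and the GC box GGGCGG, and no match overlapped another.
SLC25A3: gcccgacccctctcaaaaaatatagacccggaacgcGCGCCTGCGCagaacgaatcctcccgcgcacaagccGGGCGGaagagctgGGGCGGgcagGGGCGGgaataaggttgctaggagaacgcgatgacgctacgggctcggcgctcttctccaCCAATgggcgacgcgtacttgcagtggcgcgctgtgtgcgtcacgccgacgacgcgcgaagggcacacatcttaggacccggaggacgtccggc
SLC25A6: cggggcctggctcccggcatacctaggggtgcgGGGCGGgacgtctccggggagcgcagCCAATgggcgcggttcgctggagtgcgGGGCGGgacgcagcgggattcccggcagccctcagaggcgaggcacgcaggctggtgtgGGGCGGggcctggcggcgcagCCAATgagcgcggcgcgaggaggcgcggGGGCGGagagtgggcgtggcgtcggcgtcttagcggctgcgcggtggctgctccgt
The SLC25A3 window held 1 NRF1 match, 1 CCAAT box and 3 GC boxes, with a GC content of 66.0%. The SLC25A6 window held no NRF1 match, 2 CCAAT boxes and 4 GC boxes, with a GC content of 76.8%. Neither held TATAAA. Of the 27195 promoters searched, 7.60% had the NRF1 motif, 33.02% a CCAAT box and 42.4% a GC box in the same window. Of the 83 SLC genes with a promoter entry, 9 had the NRF1 motif (10.8%), 29 a CCAAT box (34.9%) and 59 a GC box (71.1%). The promoters searched were not limited to expressed genes, whereas these SLC genes were chosen by level, so the 2 sets are unlike. These matches describe letters, not bound sites.

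The levels of the 103 genes spanned 1.06 to 244 FPKM with a median of 7.23. The 9 genes at 100 FPKM or more held 57.3% of the summed SLC level. A further 29 genes between 10 and 100 FPKM held 30.03%, 30 between 5 and 10 FPKM held 8.52%, and 35 between 1 and 5 FPKM held 4.14%. By substrate class, 25 carriers of the SLC25 family, classed here as mitochondrial although SLC25A17 sits in peroxisomes, held 25.4% of the sum and 20 carriers of amino acids and related compounds 25.8%. The 8 sugar carriers held 13.6%, 15 inorganic ion carriers 13.4%, 11 metal ion carriers 7.30%, 4 organic acid carriers 6.92% and 6 carriers of lipids, choline and heme 3.74%. The remaining classes were small. Metal ion carriers had the highest median, at 15.4 FPKM, and sugar carriers the lowest among classes of more than 1 gene, at 2.99 FPKM. Levels chose the members and carry no test.

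**Figure D2:**
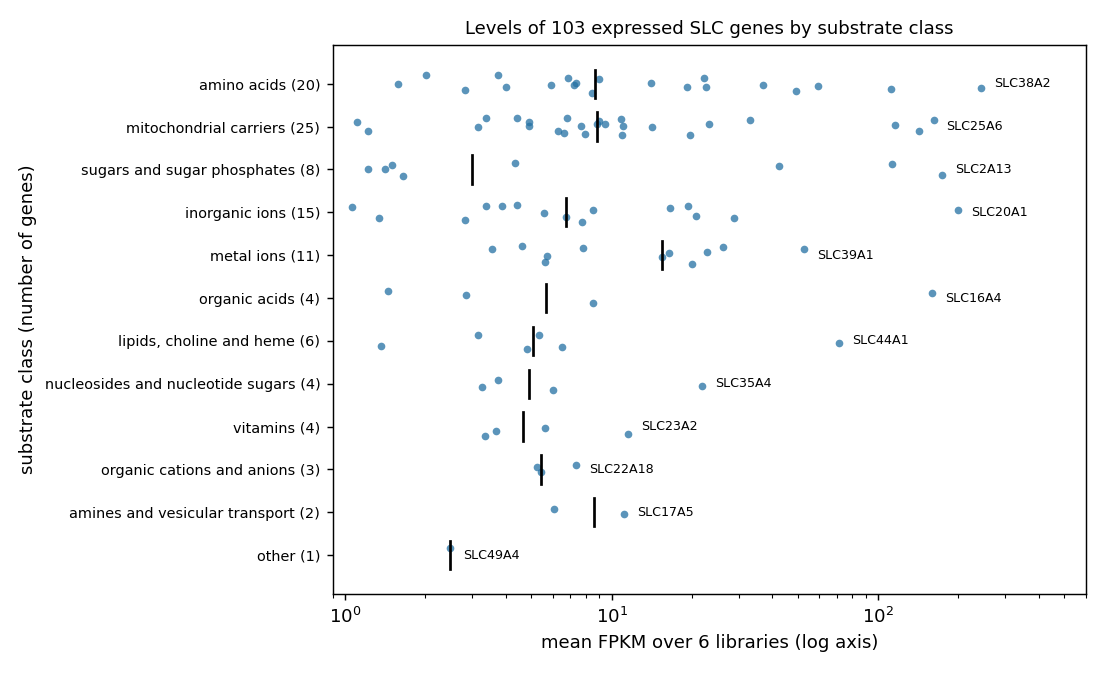
Mean FPKM over the 6 libraries (log axis) of the 103 expressed SLC genes, 1 point per gene, by substrate class with the number of genes in parentheses; black bars are class medians and the highest gene of each class is named. SLC38A2 at 244 FPKM was the highest of all, and the metal ion carriers had the highest class median.

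In the mitochondrial carrier family, the iron carrier SLC25A37 (mitoferrin 1) ran opposite to SLC25A3 and SLC25A6. It measured 153 and 155 FPKM with sg2, 132 and 138 with sg1, and 139.2 and 138.8 with sgNTG. The sg2 libraries were above the others without overlap, but the difference from sg1 did not pass (0.18, SE 0.0342, limma adjusted p = 0.0715). With a filter of 5 FPKM it passed (limma adjusted p = 0.0428), as it did with quantile normalization (difference 0.28, limma adjusted p = 0.0324). SLC25A17, a carrier of cofactors that sits in peroxisomes, measured 9.94 and 9.95 FPKM with sg2, 11.5 and 11.6 with sg1, and 11.0 and 10.8 with sgNTG. Its sg2 libraries were the lowest (difference from sg1 -0.20, limma adjusted p = 0.144).

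The SLC25 genes of lowest p on the lower side against sgNTG were SLC25A11, SLC25A10, SLC25A43 and SLC25A44, and none passed the test. SLC25A11, which exchanges oxoglutarate for malate, measured 17.8 and 17.3 FPKM with sg2, 19.4 and 20.2 with sg1, and 22.1 and 21.3 with sgNTG. It had the lowest p of all SLC genes in the comparison of both guides with sgNTG (-0.21, SE 0.0436, unadjusted p = 0.00266 and adjusted p = 0.440 in limma). The 3 groups did not overlap. RNF167, a ubiquitin ligase gene that overlaps it on the other strand, lay between 44.1 and 49.1 FPKM, with a difference of -0.03. The strand setting of the counting is not given in the sources used here. SLC25A10, the dicarboxylate carrier, measured 2.90 and 2.96 FPKM with sg2, 2.85 and 2.84 with sg1, and 3.49 and 3.82 with sgNTG (-0.26, SE 0.0711, limma adjusted p = 0.656). Here both CPT1 groups lay together under sgNTG. SLC25A43 measured 13.8 and 14.1 FPKM with sg2, 13.3 and 13.8 with sg1, and 15.02 and 15.3 with sgNTG (-0.14, limma adjusted p = 0.728). SLC25A44, a carrier of branched-chain amino acids, measured 8.07 and 7.15 FPKM with sg2, 9.78 and 8.56 with sg1, and 9.15 and 10.2 with sgNTG. Its sg2 libraries were below the others, with a difference from sgNTG of -0.31 (SE 0.0941, limma adjusted p = 0.407).

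On the other side, SLC25A38, the mitochondrial glycine carrier needed for heme synthesis, measured 6.83 and 6.85 FPKM with sg2, 7.59 and 7.12 with sg1, and 6.50 and 5.84 with sgNTG. SLC25A36, a carrier of pyrimidine nucleotides, measured 32.0 and 39.0 FPKM with sg2, 33.7 and 33.7 with sg1, and 29.6 and 30.1 with sgNTG. Both were above sgNTG in all 4 CPT1 libraries (differences 0.18 and 0.20, limma adjusted p = 0.767 for both). The other mitochondrial carriers among the 10 most abundant, namely SLC25A39 for glutathione, SLC25A24 for ATP-Mg and phosphate, and SLC25A27 of the uncoupling protein group, differed by at most 0.10 in absolute value between the guides. Over the 25 genes the difference of sg2 from sgNTG was above 0 in 14 and that of sg1 in 14, with medians of 0.0064 and 0.014. For sg2 the count was 11 with a median of -0.0095 under quantile normalization, where 50.1% of all genes were above 0, and 12 under median-of-ratios scaling, where 49.4% were, so no direction is given for this class. These medians lay close to those over all genes tested (0.0062 for sg2 and 0.0070 for sg1).

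**Figure D3:**
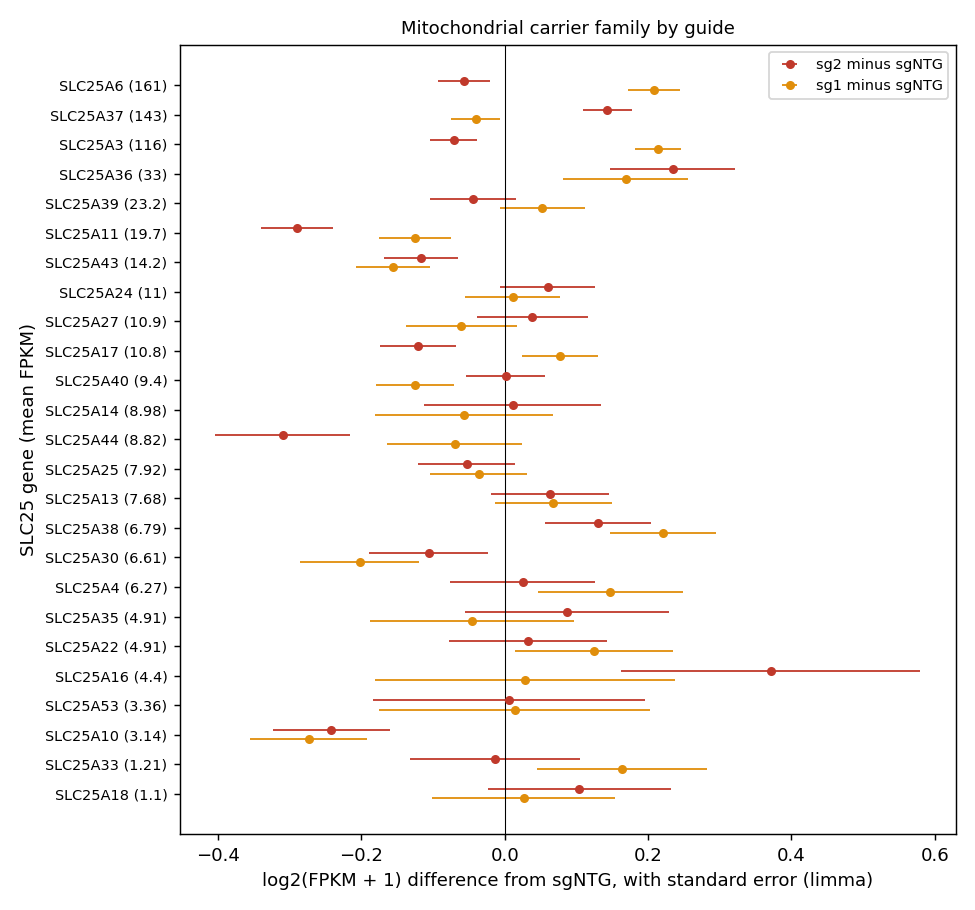
Differences in log2(FPKM + 1) of sg2 (red) and sg1 (orange) from the same sgNTG libraries for the 25 mitochondrial carriers, ordered by mean FPKM (in parentheses), with bars of 1 standard error from limma. SLC25A3 and SLC25A6 lie to the right with sg1 and slightly to the left with sg2, while SLC25A11 and SLC25A10 lie to the left with both.

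Among amino acid carriers, SLC38A2, a sodium-coupled carrier of glutamine and other neutral amino acids, was the most abundant SLC gene among those listed. It measured 235.6 and 235.8 FPKM with sg2, 255 and 262 with sg1, and 230.3 and 242 with sgNTG. The sg1 libraries were above all others (difference of sg2 from sg1 -0.13, SE 0.0348, limma adjusted p = 0.140), while sg2 fell within the sgNTG range. SLC7A2, a carrier of arginine and lysine, lay between 103 and 119.7 FPKM with overlapping groups for each guide against sgNTG. SLC6A6, the taurine carrier, measured 60.2 and 60.9 FPKM with sg2, 57.5 and 58.0 with sg1, and 60.01 and 59.7 with sgNTG, a small spread in which the groups did not overlap. SLC7A11, which takes up cystine for glutathione synthesis, measured 45.9 and 46.9 FPKM with sg2, 50.2 and 53.1 with sg1, and 48.0 and 51.6 with sgNTG. Its sg2 libraries were the lowest (-0.10 against sgNTG and -0.15 against sg1, with limma adjusted p of 0.608 and 0.220). The heavy chain SLC3A2 measured 36.7 and 34.3 FPKM with sg2, 42.2 and 37.0 with sg1, and 35.2 and 36.8 with sgNTG. SLC7A5, which carries leucine and other large amino acids with SLC3A2, measured 13.5 and 12.4 FPKM with sg2, 14.6 and 13.9 with sg1, and 14.4 and 15.3 with sgNTG. The difference of sg2 from sgNTG was -0.18 (SE 0.0652, limma adjusted p = 0.454). SLC1A5, a carrier of glutamine and other small neutral amino acids, measured 20.8 and 19.1 FPKM with sg2, 19.1 and 19.7 with sg1, and 17.9 and 18.4 with sgNTG, so all 4 CPT1 libraries were above sgNTG (0.11, limma adjusted p = 0.777).

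Several of these genes are known targets of ATF4, a transcription factor of the amino acid and stress response. Of 10 SLC genes listed as ATF4 targets, 6 were tested: SLC7A11, SLC3A2, SLC7A5, SLC7A1, SLC1A5 and SLC38A2. None passed in any comparison. Between the guides, 4 of the 6 were lower with sg2, 2 of them at an unadjusted p under 0.05 (background 9.1% of all genes), and the median difference was -0.13, beside 0.0016 over all genes. Of all genes 50.4% were above 0. Against sgNTG, 4 of the 6 were above 0 with sg1 (median 0.074) and 1 with sg2 (median -0.020), beside 52.4% of all genes in each. The summed level of these ATF4 targets was 361 and 357 FPKM with sg2, 390 and 394 with sg1, and 354 and 373 with sgNTG. SLC38A2 made up most of that level. SLC1A1 and SLC1A3, both glutamate carriers, did not pass in any comparison. SLC1A1 measured 2.31 and 2.55 FPKM with sg2, 1.96 and 1.70 with sg1, and 1.82 and 1.73 with sgNTG (0.30 for sg2 against sgNTG, SE 0.102, limma adjusted p = 0.446). SLC1A3 measured 4.03 and 3.78 FPKM with sg2, 3.09 and 3.31 with sg1, and 3.70 and 4.61 with sgNTG (-0.29 for sg1 against sgNTG, SE 0.105, limma adjusted p = 0.439).

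Among sugar carriers, SLC2A13, which carries myo-inositol with protons, measured 166 to 178 FPKM with overlapping groups. SLC2A3, the glucose carrier GLUT3 and a known target of hypoxia-inducible factor, measured 125 and 120.1 FPKM with sg2, 103 and 118 with sg1, and 102 and 106 with sgNTG. Both sg2 libraries were above the rest, whereas sg1 overlapped sgNTG (0.24 for sg2 against sgNTG, SE 0.0647, limma adjusted p = 0.370). SLC2A14 resembles SLC2A3 closely in sequence, so reads could be split between them, and lay between 1.35 and 1.48 FPKM. SLC50A1, a sugar carrier of the SWEET family, lay between 39.8 and 45.7 FPKM. Of the 4 organic acid carriers, all of the monocarboxylate family SLC16, SLC16A4 was by far the most abundant. It measured 151 and 149.8 FPKM with sg2, 172 and 166 with sg1, and 156.5 and 156.9 with sgNTG, in 3 groups that did not overlap (-0.17 for sg2 against sg1, SE 0.0323, limma adjusted p = 0.0757). With a filter of 5 FPKM this passed (limma adjusted p = 0.0453), and with quantile normalization the difference was -0.07 (limma adjusted p = 0.270). SLC16A7, a pyruvate and lactate carrier, was highest with sg2, at 9.23 and 9.07 FPKM, against 7.78 and 8.0004 with sg1 and 8.67 and 8.39 with sgNTG (0.19 for sg2 against sg1, limma adjusted p = 0.184). SLC16A5 lay between 2.48 and 3.41 FPKM. SLC16A13 measured 1.77 and 1.502 FPKM with sg2, 1.47 and 1.68 with sg1, and 1.01 and 1.22 with sgNTG, so all 4 CPT1 libraries were above sgNTG (0.30, SE 0.106, limma adjusted p = 0.767).

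In the inorganic ion class, the sodium-phosphate carrier SLC20A1 was the second most abundant SLC gene. It measured 209 and 207 FPKM with sg2, 191 and 199 with sg1, and 195 and 200.05 with sgNTG (0.09 for sg2 against sg1, SE 0.0334, limma adjusted p = 0.239). SLC9A3, a sodium-proton exchanger best known from kidney and gut, lay between 27.2 and 30.2 FPKM, and it overlaps EXOC3 on the other strand. SLC4A7, a sodium-bicarbonate carrier, measured 24.0 and 21.2 FPKM with sg2, 17.7 and 20.0 with sg1, and 19.8 and 22.1 with sgNTG (0.25 for sg2 against sg1, SE 0.0912, limma adjusted p = 0.242). SLC9A2, another sodium-proton exchanger, measured 18.4 and 17.4 FPKM with sg2, 15.04 and 15.7 with sg1, and 16.8 and 16.01 with sgNTG (0.21, limma adjusted p = 0.148). SLC26A6, an anion exchanger, measured 5.99 and 6.38 FPKM with sg2, 5.04 and 5.61 with sg1, and 4.99 and 5.40 with sgNTG (0.21 for sg2 against sgNTG, limma adjusted p = 0.484). Of the 15 genes of this class, 14 had a value above 0 for sg2 against sgNTG, with a median of 0.10, and 10 for sg1 against sgNTG, with a median of 0.039. Of all tested genes 52.4% were above 0 in each of these comparisons. The sg2 count was 13 under quantile normalization and 14 under median-of-ratios scaling, and 1 of the 15 genes lay at an unadjusted p under 0.05 on the higher side, beside 4.94% of all genes.

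Among metal carriers, the zinc importer SLC39A1 led at 52.6 and 47.3 FPKM with sg2, 55.0 and 53.6 with sg1, and 53.0 and 55.6 with sgNTG. The sg2 libraries were the lowest (-0.12 against sgNTG, limma adjusted p = 0.584). SLC39A6, also of the zinc importer family, lay between 24.9 and 27.8 FPKM and the copper importer SLC31A1 between 21.4 and 23.4 FPKM. SLC30A1, which exports zinc from the cell, measured 17.5 and 17.0 FPKM with sg2, 15.12 and 15.16 with sg1, and 16.9 and 16.5 with sgNTG. Its groups did not overlap and sg1 was lowest (0.18 for sg2 against sg1, SE 0.0491, limma adjusted p = 0.153). Of the 11 metal carriers, 4 had a value above 0 for sg1 against sgNTG and 5 for sg2, beside 52.4% of all genes in each. In the comparison of both guides together with sgNTG the count was 2, beside 52.9% of all genes, with a median of -0.015. The count was also 2 under quantile normalization and median-of-ratios scaling, with a median of -0.022 in each.

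The smaller classes were led by SLC44A1, a choline carrier, at 68.2 to 74.7 FPKM with overlapping groups for each guide against sgNTG. SLC27A4 and SLC27A2, which take up and activate fatty acids, are the members closest to the fatty acid pathway of CPT1. SLC27A4 measured 6.18 and 5.83 FPKM with sg2, 6.28 and 6.9997 with sg1, and 7.26 and 6.65 with sgNTG (-0.18 for sg2 against sgNTG, SE 0.0804, limma adjusted p = 0.533). SLC27A2 lay between 4.27 and 5.23 FPKM with overlapping groups. SLC10A3, of the bile acid carrier family, lay between 4.91 and 6.42 FPKM. Of the nucleoside and nucleotide sugar carriers, SLC35A4 measured 20.1 and 21.0 FPKM with sg2, 21.8 and 21.9 with sg1, and 23.2 and 22.6 with sgNTG (-0.11 for both guides, limma adjusted p = 0.768). SLC35A3, a carrier of UDP-N-acetylglucosamine, lay between 4.39 and 7.67 FPKM and the nucleoside carrier SLC29A1 between 3.35 and 4.03 FPKM. SLC29A2, its relative, was above sgNTG in all 4 CPT1 libraries, at 3.10 and 3.30 FPKM with sg2 and 3.44 and 3.97 with sg1, against 2.92 and 2.89 with sgNTG. Among vitamin carriers the ascorbate carrier SLC23A2 lay between 11.2 and 12.2 FPKM, the riboflavin carrier SLC52A2 between 5.11 and 6.19, and the thiamine carrier SLC19A2 between 3.30 and 4.17. SLC19A3, also a thiamine carrier, measured 3.27 and 3.31 FPKM with sg2, 3.62 and 3.94 with sg1, and 3.01 and 2.99 with sgNTG (0.18 for both guides, SE 0.0689, limma adjusted p = 0.768). SLC22A18 measured 6.84 and 6.02 FPKM with sg2, 7.75 and 7.33 with sg1, and 7.92 and 8.09 with sgNTG, in groups that did not overlap (-0.28 for sg2 against sgNTG, SE 0.0765, limma adjusted p = 0.370). SLC22A23 and SLC22A17 lay between 4.67 and 5.96 FPKM. SLC17A5, which exports sialic acid from lysosomes, lay between 10.3 and 12.0 FPKM, and SLC17A9, which loads vesicles with nucleotides, between 5.45 and 6.48. SLC49A4, the only gene of no listed class, lay between 2.24 and 2.70 FPKM.

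**Figure D4:**
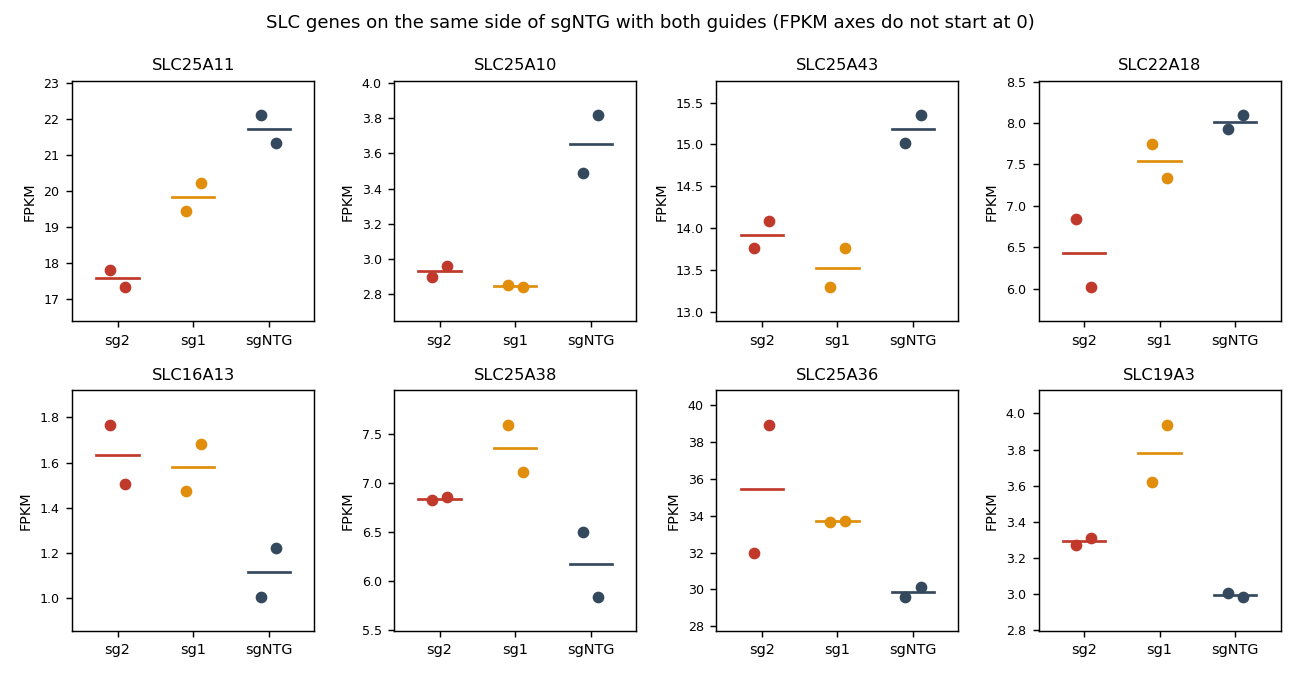
FPKM of 8 of the 18 SLC genes whose 4 CPT1 libraries all lay on the same side of both sgNTG libraries, with 1 point per library and a line at each group mean; the axes differ between panels and do not start at 0. SLC25A11, SLC25A10, SLC25A43 and SLC22A18 were lower than sgNTG and SLC16A13, SLC25A38, SLC25A36 and SLC19A3 higher, and none passed the test.

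Counted over the whole list, 18 of 103 SLC genes (17.5%) had all 4 CPT1 libraries on the same side of the sgNTG libraries, beside 12.3% of all tested genes. There were 10 higher (background 7.06%) and 8 lower (background 5.21%). In 10 of 103 (9.71%) the guides lay on opposite sides of sgNTG without overlap, beside 8.37% of all tested genes. The SLC25 family, which has 25 of the 103 members, had 4 of these 10: SLC25A3, SLC25A6, SLC25A37 and the peroxisomal SLC25A17.

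The limma test of both guides against sgNTG called 0.0113% of all genes and no SLC gene. At an unadjusted p under 0.05 there were 12 SLC genes (11.7%), beside 6.3% of all genes: 7 higher (background 3.74%) and 5 lower (background 2.57%). Of these 12, 7 were of the SLC25 family, which has 25 of the 103 members. They include SLC25A3 and SLC25A6 on the higher side, where sg1 alone lay above sgNTG and sg2 lay below it. At that p with sg1 against sgNTG, 9 SLC genes were higher (background 5.87%) and 7 lower (background 4.05%), of which 3 and 4 were SLC25 genes. With sg2 against sgNTG, 7 were higher (background 4.94%) and 6 lower (background 4.67%), of which 2 and 3 were SLC25 genes. Between the guides, 8 were higher with sg2 (background 7.93%) and 11 lower (background 9.1%), of which 1 and 5 were SLC25 genes. The share of SLC25 genes among these was not tested. The difference of both guides from sgNTG was above 0 in 60 of 103 SLC genes, beside 52.9% of all genes.

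With sg1 against sgNTG limma also called 0.0113% of all genes and no SLC gene. Unadjusted, 16 SLC genes (15.5%) passed, beside 9.92% of all genes: 9 higher (background 5.87%) and 7 lower (background 4.05%). SLC25A3 and SLC25A6 had the lowest p there, with differences of 0.21 for each and limma adjusted p of 0.141 and 0.181. The libraries did not overlap in 45 SLC genes (43.7%), beside 41.1% of all genes, 26 higher (background 22.2%) and 19 lower (background 18.9%).

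With sg2 against sgNTG limma called 0.0225% of all genes and no SLC gene, and unadjusted 13 SLC genes (12.6%) passed, beside 9.61% of all genes: 7 higher (background 4.94%) and 6 lower (background 4.67%). SLC25A11 had the lowest p, with a difference of -0.29 and a limma adjusted p of 0.223. The libraries did not overlap in 52 SLC genes (50.5%), beside 41.1% of all genes, 29 higher (background 22.3%) and 23 lower (background 18.7%). These comparisons share the sgNTG libraries.

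Between the guides, unadjusted, 19 SLC genes passed, beside 17.0% of all genes: 8 higher with sg2 (background 7.93%) and 11 lower (background 9.1%). The libraries did not overlap in 59 SLC genes (57.3%), beside 48.6% of all genes, 30 higher (background 24.4%) and 29 lower (background 24.2%). The difference was above 0 in 52 of 103, beside 50.4% of all genes. The largest absolute difference was 0.39, for SLC26A1, and the median absolute difference was 0.083, beside 0.098 over all genes.

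**Figure D5:**
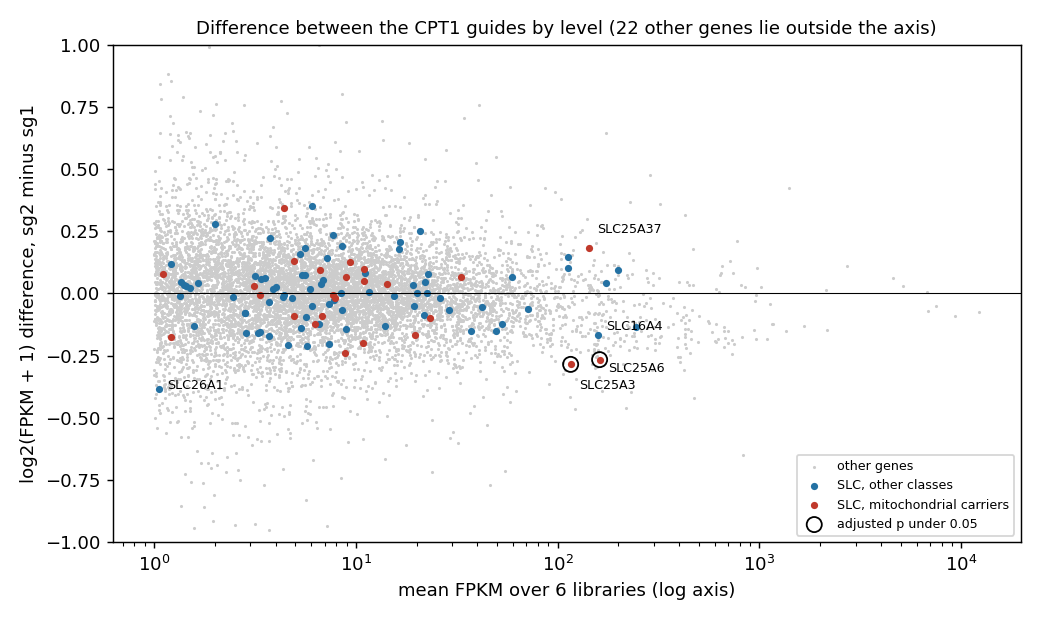
Difference in log2(FPKM + 1) of sg2 minus sg1 against mean FPKM (log axis) for the 103 SLC genes, with mitochondrial carriers in red and other classes in blue, over all other tested genes in gray; 22 other genes lie outside the plotted range and circles mark an adjusted p under 0.05. The 2 circled genes, SLC25A3 and SLC25A6, are among the 9 SLC genes above 100 FPKM. The median SE of this difference was smallest in that band of levels.

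How finely a gene could be measured depended on its level. The median SE of the difference between the guides was 0.0348 for the 9 genes at 100 FPKM or more, 0.0577 between 10 and 100 FPKM, 0.0806 between 5 and 10 FPKM and 0.104 under 5 FPKM. Both called genes are in the first of these bands. The median ratio of the highest to the lowest library was 1.22, and the ratio was over 1.5 in 6 genes: SLC26A1, SLC16A13, SLC25A16, SLC35A3, SLC25A53 and SLC20A2. SLC26A1, a sulfate carrier, measured 1.36 and 0.555 FPKM with sg2, 0.886 and 2.32 with sg1, and 0.657 and 0.583 with sgNTG, so its replicates with sg1 and with sg2 lay far apart. Its annotated span overlaps that of DGKQ on the same strand and that of IDUA on the other. In all, 58 members overlap an annotated gene on the other strand and 31 one on the same strand. At the level threshold, SLC26A1 (1.06 FPKM), SLC25A18 (1.103) and SLC25A33 (1.21) lay just inside, and SLC25A42 (0.879), SLC2A10 (0.844) and SLC10A4 (0.789) just outside.

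Of 12 listed partner proteins of these carriers, 6 were tested and none passed in any comparison. BSG (basigin), which escorts monocarboxylate carriers to the membrane, measured 382 and 329 FPKM with sg2, 386.3 and 385.9 with sg1, and 375 and 369 with sgNTG. The outer membrane channel VDAC1 lay between 146 and 157 FPKM, and MPC1 and MPC2, which together carry pyruvate into mitochondria, lay between 8.95 and 11.9 and between 13.7 and 16.4 FPKM. At an unadjusted p under 0.05 between the guides, 1 of the 6 partners, CD44, lay higher with sg2 (background 7.93%) and 1, MPC1, lower (background 9.1%). CD44 also lay under that p with sg1 against sgNTG, on the lower side (background 4.05%). Of 21 listed ABC transporters, which pump substrates with ATP, 12 were tested and none passed. At an unadjusted p under 0.05 between the guides there was 1 of 12, beside 17.0% of all genes. This was ABCA1, a cholesterol exporter, at 4.14 and 3.90 FPKM with sg2, 3.07 and 3.14 with sg1, and 3.91 and 3.75 with sgNTG. Against sgNTG with sg1, ABCA1 lay under that p on the lower side (background 4.05%) and ABCC2, an exporter of organic anions, on the higher side (background 5.87%). With both guides ABCC2 also lay under that p on the higher side (background 3.74%). ABCC2 measured 61.9 and 62.0 FPKM with sg2, 64.3 and 65.4 with sg1, and 58.8 and 60.8 with sgNTG.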

How the data were processed

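RNA came from TRIzol extraction, and bead-captured mRNA went into the libraries (the labels' protocols). STAR, StringTie and build hg38 are named per the submitters' processing notes, and the sources used here give no versions, annotation or strand setting. The single deposited table holds FPKM values computed by the authors, in 6 columns named for the samples and 52807 rows, of which 32 repeated another and were kept once. Depth is unknown.

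Values were log2(FPKM + 1), and fold changes on that scale understate the change of low genes. The 8887 genes that averaged 1 FPKM or more were fitted with limma 3.58.1 in R 4.3.3, with 1 mean per group, all 6 libraries, a variance trend and no block. Tests were two-sided, adjusted by Benjamini-Hochberg over all genes of a comparison, with a threshold of 0.05. An exact permutation test of 2 libraries against 2 cannot go below p = 0.333, so none was used.

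The members and lists were chosen with earlier results of these data known, and substrate classes were assigned by family. Named genes were those called, the 5 of lowest p in each direction of a comparison, the 3 most abundant of each class, the members of the ATF4, hypoxia and fatty acid lists, and those nearest the level threshold; other genes were named after their values were seen. All 103 members matched GENCODE 29, 101 by symbol. The hypoxia list had 1 tested gene, the sterol list none, and the carnitine and fatty acid list 2, none of them called. Promoters are from RefSeq. Alternatives were another pseudocount, 2 other filters, no trend, 2 scalings, a replicate block, fewer groups and each library left out.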

Additional observations from a re-analysis of the deposited data

Results flagged for a closer look

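The effects of the guides differed by a direct test for 2 of 103 SLC genes (1.94%), which is near the 1.29% of all tested genes. SLC25A3 had a log2 difference of sg2 minus sg1 of -0.29 (limma adjusted p = 0.0296), with a difference from sgNTG of -0.07 with sg2 and 0.21 with sg1. SLC25A6 had a difference of sg2 minus sg1 of -0.27 (limma adjusted p = 0.0380), with a difference from sgNTG of -0.06 with sg2 and 0.21 with sg1. Both sg2 libraries were lower than both sg1 libraries for each gene. For each gene the call was lost when any single library was left out and under several of the other settings given below.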

How the results depend on the processing

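The number of SLC genes called between the guides was 2 and depended on the settings. It was 0 without a filter on low values, 0 without a variance trend, 0 with only the libraries compared and 0 to 0 over the 6 fits that left out 1 library, and 4 with a filter of 5 FPKM, where SLC25A37 and SLC16A4 joined. The pseudocount of 0.1 and median-of-ratios scaling gave 2, the same genes, and quantile normalization 2, SLC25A3 and SLC25A37. Over all genes, the main fit called 115 of 8887 and the filter of 5 FPKM 217 of 5020. Without a filter on low values or without a variance trend, 0 genes of any kind were called. Only 26 of all genes were called with only the libraries compared, and 5 with a replicate block. The SLC counts under these settings thus followed those of all genes. With a replicate block the number of SLC genes called was 0 (limma adjusted p = 0.0793 for SLC25A3 and SLC25A6). The labels do not say that a number marks a shared culture or day, so the numbers were not taken to pair the samples. Differences between replicates 1 and 2 correlated across genes at 0.0603 for sg2 with sg1, -0.0276 for sg2 with sgNTG and 0.0343 for sg1 with sgNTG. These correlations cannot settle the pairing, because the spread within groups may be technical. Over 14 alternatives the difference of SLC25A3 stayed between -0.30 and -0.23 and was called in 4, and that of SLC25A6 stayed between -0.30 and -0.18 and was called in 3. In the other comparisons the count was 0 in every alternative, and no difference of a gene named by the rule changed sign. With 2 libraries per group, an adjusted p that misses the threshold does not show equal levels, and low genes were measured less finely than abundant ones.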
